A study of Oryza sativa with 3 samples.

Results

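Fragments of the serine tRNAs with anticodons GCT and GGA were examined during pollen development of rice, Oryza sativa, in the cultivar Guichao No.2. They were chosen by their anticodon label, as every sequence labelled GCT or GGA in any of the 3 deposited lists of tRNA fragments, which gave 1263 of 18424 distinct sequences. The list of uninucleate microspores, UNM, held 276 of them, that of bicellular pollen, BCP, 970, and that of tricellular pollen, TCP, 714. All spores came from field-grown plants and were isolated on a sucrose gradient, and the labels name no treatment or mutant. The lists hold tRNA fragments alone, so the stage could not be checked against marker genes. UNM are haploid spores before the first pollen mitosis, BCP hold a vegetative and a generative cell, and TCP hold a vegetative cell and sperm cells. Each stage has 1 small RNA library, described in the labels as 13 to 40 nt for UNM and as 13 to 41 nt for BCP and TCP. The labels do not say how many plants were pooled.

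The BCP list held 4958412 reads and the UNM list 686685, a ratio of 7.22. The numbers in the TCP list did not exceed 28 and were not taken as reads, so TCP is described only by which sequences it lists. A share below is a percentage of all tRNA-derived reads of a list unless another base is named. Ranges in parentheses after a share are exact Clopper-Pearson 95% intervals, and those after a ratio of shares (BCP over UNM) are exact conditional binomial 95% intervals. Both cover counting error only, and with 1 library per stage no difference has a replicate check or a test between stages. Nor can a share tell more of these fragments from fewer of the others.

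Serine is read by several tRNAs. The GCT isoacceptor reads the AGC and AGU codons and the GGA isoacceptor reads UCC and UCU, a task that the AGA isoacceptor has in the cytosol of plants. Plastids and mitochondria of plants carry tRNA-Ser genes of their own, and GGA is known there mainly as an organelle type. Serine tRNAs differ from most others by a long variable arm between the anticodon arm and the T arm. Plant tRNA fragments are known mainly as short 5′ pieces that end in the D loop and as longer pieces that end in the anticodon loop.

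To show which parent tRNAs the members come from, overlapping fragments with the same label were joined into longer stretches, named here A to D for GCT and G for GGA in an order chosen after their reads had been seen. Capitals mark the anticodon.
GCT type A: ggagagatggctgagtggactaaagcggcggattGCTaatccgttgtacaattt
GCT type B: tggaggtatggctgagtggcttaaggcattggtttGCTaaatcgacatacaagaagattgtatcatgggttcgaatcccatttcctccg
GCT type C: gacgctttggccgagtggttaa
GCT type D: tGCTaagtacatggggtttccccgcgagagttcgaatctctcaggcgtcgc
GGA type G: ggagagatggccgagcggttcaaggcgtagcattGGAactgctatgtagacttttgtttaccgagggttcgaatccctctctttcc
Positions are counted from the first base of the line in A and G and from the second in B, where the base before it is held by few reads. In A, B and G the anticodon begins at position 35. Types A and G are identical over their first 11 bases, and A and B over their first 4. C holds a 5′ end and D an anticodon followed by a 3′ side, and no fragment joined them, so whether they belong to the same tRNA was not shown. The joined stretch of B is 88 nt long from its first base and that of G is 86 nt, and whether either ends where its tRNA ends was not shown. In the RefSeq gene table of rice assembly ASM3414082v1, the 18 nuclear TRNAS-GCU genes are 82 or 88 nt long, the 6 nuclear TRNAS-GGA genes 87 nt, and the 3 mitochondrial trnS genes 87 or 88 nt. The 88 nt of B thus occurs among nuclear and mitochondrial genes. The 86 nt of G equals none of these lengths, but its stretch may stop short of the end of its tRNA, so no gene is excluded by it. Plastid genes were not compared, and A, C and D are partial stretches. Plastid, mitochondrial or nuclear origin was therefore not assigned.

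Members that fell on 1 of these stretches by exact match held nearly all reads. Only 255 of 82411 member reads in BCP and 125 of 8836 in UNM fell on none. Of those 125 UNM reads, 108 belonged to the 20-nt sequence ggaggtatggctgagtggca, which differs from type B at its last base and had 33 reads in BCP. Joining also gave a stretch of 21 nt that ends in this variant and held 16255 summed reads. The 18-nt and 19-nt type B fragments lie on both stretches and were counted as type B, so their parent is not settled between them.

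Taken by anticodon, GCT fragments had nearly the same share in both libraries and GGA fragments did not. GCT made up 1.51% of BCP reads (1.503 to 1.52) and 1.28% of UNM reads (1.25 to 1.31), a ratio of 1.18 (1.16 to 1.21), with 75056 and 8781 reads. The direction of this small difference turned, to a log2 ratio of -0.17, without the 10 most abundant sequences of each list, and to -0.78 with sequences of 13 to 33 nt alone. GGA had 7355 reads in BCP and 55 in UNM, 0.148% (0.145 to 0.152) and 0.00801% (0.00603 to 0.0104), which was 18.5-fold higher in BCP (14.2 to 24.6). The other serine isoacceptors spread widely: TGA fragments were 7.46-fold lower in BCP (7.395 to 7.52), AGA fragments 5.21-fold lower (5.103 to 5.31), and CGA fragments 2.44-fold higher (2.36 to 2.52). Within all tRNA-Ser reads, GCT took 26.5% in BCP and 6.27% in UNM, and GGA took 2.596% and 0.0393%.

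The near-equal GCT share was the sum of opposite shifts in its leading parent types. Type A had 58688 reads in BCP and 1516 in UNM, 1.18% and 0.221% of the lists, 5.36-fold higher in BCP (5.09 to 5.65). Type B had 11980 reads in BCP and 6890 in UNM, 0.242% and 1.003%, 4.15-fold lower in BCP (4.03 to 4.28). These shifts are in reads: counted by distinct sequences, the log2 ratio of type A was 0.30 and that of type B turned to 0.66. Distinct sequences of a type overlap and are not independent counts, so no interval is given for these values. By reads, type A made up 78.2% of GCT reads in BCP (77.9 to 78.5) and 17.3% in UNM (16.5 to 18.1). Type B made up 15.96% in BCP (15.7 to 16.2) and 78.5% in UNM (77.6 to 79.3). The lesser GCT types were both higher in BCP. Type C, the 5′ end, had 668 reads in BCP and 36 in UNM, 2.57-fold higher (1.84 to 3.701), and type D had 3468 and 214, 2.24-fold higher (1.95 to 2.59). The rise of type C rests on 1 sequence of 17 nt, which held 638 of its BCP reads and 6 of its UNM reads. In type D, 1 sequence of 32 nt held 829 and 1.

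Fragment length moved with the stage in both anticodons. Among GCT reads, 70.6% were at least 30 nt long in BCP (70.3 to 70.95) and 13.1% in UNM (12.4 to 13.8). The class of 18 to 20 nt held 13.9% of GCT reads in BCP and 78.6% in UNM. Among GGA reads, 92.6% were at least 30 nt in BCP (91.97 to 93.2) and 7.27% in UNM (2.02 to 17.6), where that share stands for 4 reads. Over all listed tRNA reads the long share was 50.8% in BCP and 4.04% in UNM, which is below the GCT value in both libraries and below the GGA value in BCP, while the GGA interval in UNM includes it. In the other serine isoacceptors, long reads stayed few: 2.51% in BCP and 0.0639% in UNM for TGA, 1.22% and 0.0681% for AGA, and 1.398% and 2.51% for CGA.

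Part of the GCT length difference lay between types and part within them. Type A was long in both libraries, with 85.9% of its reads at 30 nt or more in BCP (85.6 to 86.2) and 65.7% in UNM (63.2 to 68.1). Type B was short in both, with 11.97% long reads in BCP (11.4 to 12.6) and 1.94% in UNM (1.63 to 2.299). With the long shares of BCP weighted by the type composition of UNM, 25.2% of GCT reads would be long. With the long shares of UNM weighted by the composition of BCP, 52.1% would be.

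Most of these long reads started at the first base and ended at the anticodon. In type A, 89.6% of BCP reads and 91.6% of UNM reads began at position 1. The leading fragments end just before the anticodon, after its first base or after its second base, and capitals mark the anticodon bases they hold.
Type A, 34 nt: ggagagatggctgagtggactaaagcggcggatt
Type A, 35 nt: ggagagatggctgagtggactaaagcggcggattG
Type A, 36 nt: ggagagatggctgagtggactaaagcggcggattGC
The 34-nt fragment had 13348 reads in BCP and 306 in UNM, 6.04-fold higher (5.39 to 6.79). The 35-nt fragment had 11246 and 177 reads, 8.799-fold higher (7.58 to 10.3). The 36-nt fragment was the most abundant GCT sequence of BCP, with 20997 reads against 441 in UNM, 6.59-fold higher (6.0 to 7.26). Together they held 86.7% of the type A reads from the first base in BCP (86.4 to 86.96) and 66.6% in UNM (64.02 to 69.1). The order of the 3 lengths was the same in both libraries, with 36 nt ahead of 34 nt and 35 nt last. All 3 were listed in TCP.

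Shorter 5′ fragments of type A were mixed. Of its fragments from the first base with at least 50 summed reads, all 7 of at least 30 nt were at least 2-fold higher in BCP with an interval that excluded 1, as were 5 of 7 of 21 to 29 nt and 0 of 3 of at most 20 nt. Over all tRNA fragments with that many reads, 482 of 521 of at least 30 nt and 367 of 831 of at most 20 nt were higher, so a like length trend is general. Over all lengths together 1224 of 1794 were higher, and most of the higher count at 21 to 29 nt is thus not particular to type A. Among the higher type A fragments of 21 to 29 nt, the 29-nt fragment had 485 reads in BCP and 23 in UNM, a ratio of 2.92 (1.92 to 4.65), the 24-nt fragment 353 and 16, a ratio of 3.06 (1.86 to 5.405), and the 21-nt fragment 74 and 1, a ratio of 10.2 (1.78 to 410.2). The other two higher ones, of 25 and 26 nt, had no read in UNM and counted as higher by construction. The 19-nt fragment ggagagatggctgagtgga had 698 reads in BCP and 127 in UNM, a ratio of 0.761 (0.629 to 0.927). The 22-nt fragment ggagagatggctgagtggacta had 1047 and 106, a ratio of 1.37 (1.12 to 1.69), and the 23-nt version 775 and 62, a ratio of 1.73 (1.34 to 2.28). These 3 did not reach 2-fold in either direction. Within type A reads from the first base, ends at 18 to 20 nt took 1.38% in BCP and 11.4% in UNM. These shares do not cover the same sequences. The 18-nt prefix is counted in UNM, with 27 reads, but not in BCP, where its 267 reads carry the TGA label.

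Fragments of type A with a later start ended at the same place. Of the reads starting at positions 2 to 34, 78.4% of 6071 in BCP (77.3 to 79.4) and 40.3% of 124 in UNM (31.6 to 49.5) ended at positions 34 to 36. The family of the first 13 bases gtggactaaagcg, which starts at position 15, had 1000 reads in BCP and 26 in UNM, 5.33-fold higher (3.61 to 8.19). The family tggctgagtggac, from position 8, had 975 and 10 reads, 13.5-fold higher (7.31 to 28.2), and its leading 27-nt sequence tggctgagtggactaaagcggcggatt, with 342 reads in BCP and 0 in UNM, ends at position 34. Few reads began at the anticodon or after it: 17 in BCP and 4 in UNM started at position 35 or later on type A, whose stretch reaches only to position 54.

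The short fragments of GCT came mainly from type B and differed between the libraries by a single base at the 3′ end. The capital marks the base that the longer fragment adds.
Type B, 18 nt: ggaggtatggctgagtgg
Type B, 19 nt: ggaggtatggctgagtggC
The 19-nt fragment was the most abundant GCT sequence of UNM. It had 1201 reads in BCP and 5215 in UNM, 0.0242% and 0.759% of the lists, 31.4-fold lower in BCP (29.4 to 33.4). The 18-nt fragment had 7137 reads in BCP and 1171 in UNM, 0.144% and 0.171%, a ratio of 0.844 (0.793 to 0.899). Of the reads of either length, the 19-nt fragment thus took 14.4% in BCP (13.7 to 15.2) and 81.7% in UNM (80.7 to 82.6).

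This difference, chosen after its values had been seen, was set beside every nested pair of an 18-nt and a 19-nt fragment with at least 50 reads per library. Among 37 such pairs of all tRNAs, the share of the 19-nt member was lower in BCP in 21 and higher in 16, with a median difference of -0.746 percentage points. The difference of type B, -67.3 points, was the lowest of the 37, and no other pair fell by over 50 points. The highest difference was 49.8 points, in a pair labelled TCC, so large shifts of this share also occurred toward the 19-nt member. The type A pair stood at 72.3% in BCP (69.4 to 75.1) and 82.5% in UNM (75.5 to 88.1), where the 18-nt member carries the TGA label in BCP.

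Other type B ends were split by length as well. The 20-nt fragment ggaggtatggctgagtggct had 200 reads in BCP and 184 in UNM, 6.64-fold lower (0.151, 0.123 to 0.185, as BCP over UNM). The 17-nt fragment ggaggtatggctgagtg had 623 and 16 reads, 5.39-fold higher (3.29 to 9.49). At the anticodon, fragments of 34 to 36 nt made up 7.18% of the type B reads from the first base in BCP (6.71 to 7.68) and 0.104% in UNM (0.0419 to 0.215), 800 and 7 reads. Ends at the anticodon were therefore more frequent in BCP in type B too, on a far lower level than in type A.

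On the 3′ side of type B, long fragments were read in both libraries. Of its reads starting at position 35 or later, 84 of 249 in BCP (33.7%, 27.9 to 39.98) and 117 of 133 in UNM (87.97%, 81.2 to 92.96) were at least 30 nt, and 105 of the UNM reads were of 40 nt. In BCP the family agattgtatcatg, chosen after its values were seen, had 65 reads, 72.3% of them long, against 5 in UNM. The 40-nt sequence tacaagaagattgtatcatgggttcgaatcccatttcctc, from position 47, had 0 reads in BCP and 50 in UNM. A second one, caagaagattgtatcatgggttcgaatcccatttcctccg, from position 49 to 88, had 0 and 26. The BCP list holds no sequence of 40 nt and 1 of 37 nt, against 286 of 39 nt, while the UNM and TCP lists hold none of 39 nt and 95 and 252 of 40 nt. These absences in BCP thus move with what the lists hold at that length, whose part in the result was not tested.

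GGA fragments were read mostly in BCP, with ends before and within the anticodon. Capitals again mark anticodon bases.
Type G, 30 nt: ggagagatggccgagcggttcaaggcgtag
Type G, 32 nt: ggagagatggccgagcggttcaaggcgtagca
Type G, 34 nt: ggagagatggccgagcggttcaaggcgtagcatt
Type G, 36 nt: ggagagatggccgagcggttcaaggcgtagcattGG
The 34-nt fragment led with 2102 reads in BCP and 1 in UNM, a ratio of 291 (52.2 to 11503). The 32-nt fragment had 1583 reads in BCP and 0 in UNM, a ratio of 73.1 with UNM set at the floor of 3 counts, and the 36-nt fragment 1134 and 0, a ratio of 52.3 on the same floor. The lower limits of their exact intervals were 59.4 and 42.5. The 30-nt fragment had 697 and 2 reads, a ratio of 48.3 (13.3 to 399). In BCP, reads alternated along this ladder, with 697 at 30 nt, 91 at 31 nt, 1583 at 32 nt, 369 at 33 nt, 2102 at 34 nt, 789 at 35 nt and 1134 at 36 nt. Each even length thus had more reads than the odd lengths beside it.

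In UNM the few GGA reads were short. The leading ones were the 18-nt ggagagatggccgagcgg, with 58 reads in BCP and 12 in UNM, a ratio of 0.669 (0.356 to 1.37), and its 19-nt version, with 8 and 10. Ends at 18 to 20 nt made up 1.04% of the type G reads from the first base in BCP and 75.0% in UNM, 72 and 24 reads. The 13-nt tggaactgctatg, from position 34, was read 4 times in UNM and not in BCP. The start family ggagagatggccg as a whole had 6920 reads in BCP and 32 in UNM, 29.9-fold higher (21.2 to 43.8). The other GGA families had at most 67 reads in BCP and at most 6 in UNM. Among them, aaggcgtagcatt had 67 and 1, ggttcaaggcgta 61 and 0, actgctatgtaga 48 and 6, gcggttcaaggcg 40 and 0, and aactgctatgtag 24 and 4. The families tggaactgctatg and atgtagacttttg had 7 and 4 reads and 0 and 2 reads.

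Types A and G, whose BCP reads were mostly long, differed in where their long fragments ended. Ends at positions 34 to 36 took 86.7% of the type A reads from the first base (86.4 to 86.96) and 58.2% of those of type G (56.99 to 59.3). Ends at positions 29 to 33 took 6.76% in A (6.55 to 6.98) and 39.8% in G (38.7 to 41.01). These intervals do not overlap, and all 4 values come from the BCP library.

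Types C and D were minor. The leading type C fragment, the 17-nt gacgctttggccgagtg, had 638 reads in BCP and 6 in UNM. Type D reads fell into pieces from the anticodon loop and pieces of the T arm and 3′ end. The family taagtacatgggg, from the last base of the anticodon of D, had 969 reads in BCP and 48 in UNM, 2.796-fold higher (2.09 to 3.82). The family ccccgcgagagtt had 1083 and 13 reads, 11.5-fold higher (6.72 to 21.7). Its leading 32-nt sequence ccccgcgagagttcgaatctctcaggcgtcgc runs to the end of the stretch and had 829 reads in BCP and 1 in UNM, a ratio of 115 (20.5 to 4540.0). The tail CCA of mature tRNAs was not seen at a 3′ end: the only member read that ends in these letters, 1 read in BCP, is the 30-nt aagaagattgtatcatgggttcgaatccca, which ends inside type B. Whether the mapping admitted reads with this tail is not stated, so nothing is concluded from its absence.

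Single members were compared from 50 summed reads on, and were counted as higher or lower in BCP where the shares differed at least 2-fold and 1 lay outside the interval of the ratio. Of 1057 member sequences in UNM or BCP, 86 reached this minimum, 69 were higher, 6 lower and 11 neither. Over all 1794 sequences so compared, 68.2% were higher and 17.2% lower, beside 80.2% higher among the members, so most of the higher count is shared with tRNA fragments at large. The deeper BCP library admits more sequences. No read in UNM was held by 25 of the 86 members, beside 418 of the 1794 sequences, and all of these had to count as higher by the rule. Among the 32 members with at least 10 UNM reads the balance turned, with 11 higher and 13 lower, beside 23.5% higher and 60.3% lower over all sequences at that minimum. The members' median log2 ratio was 2.51, beside 2.01 over all sequences.

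All 6 lower members were of type B or its variant. They were its 19-nt, 20-nt, 21-nt and 26-nt 5′ fragments, the 20-nt sequence with another last base, and the 40-nt 3′-side fragment. That last one has a length of which the BCP list holds no sequence, and the part of this in its count was not tested. With 13 to 33 nt alone, 5 of 75 members were lower, beside 16.6% over all sequences at that setting. Of 46 compared sequences of type A, none was lower and 40 were higher, and the median log2 ratio of all 46 was 2.54. Of 16 of type B, 10 were higher and 5 lower. All 8 of type G but the 18-nt one were higher, with a median of 5.39. Among the compared members, 20 of 78 of GCT and 5 of 8 of GGA had no read in UNM, beside 418 of 1794 over all sequences. These could count only as higher, with ratios set by the floor of 3 counts. By length, 33 of 34 members of at least 30 nt were higher, beside 482 of 521 over all sequences, and 18 of 30 members of at most 20 nt, beside 367 of 831.

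Grouped by anticodon and first 13 bases, 187 families were read and 36 had at least 50 summed reads. Of these, 27 were higher in BCP and 2 lower, beside 59.6% higher and 20.4% lower of 740 families of all anticodons. Both lower ones are of type B. They are its start family ggaggtatggctg, with 11170 reads in BCP and 6827 in UNM, 4.41-fold lower (4.28 to 4.55), and tacaagaagattg, with 0 and 52 reads. Of those 52 reads, 50 are the 40-nt sequence above, a length of which the BCP list holds no sequence. With 13 to 33 nt alone, 1 of 33 families was lower, beside 20.4% of the families of all anticodons. The start family ggagagatggctg of type A had 52600 and 1388 reads, 5.25-fold higher (4.98 to 5.54). The highest ratios, with each family reduced to its most abundant sequence, belonged to the 34-nt type G fragment, the 32-nt type D fragment and the 33-nt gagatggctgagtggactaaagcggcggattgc of type A, with 218 and 1 reads, a ratio of 30.2 (5.36 to 1198). The lowest ratios under the same reduction belonged to the 40-nt type B fragment, which was lower in BCP, to the 18-nt type B fragment, which was neither, and to the 14-nt aagtacatggggtt of type D, which with 124 and 8 reads was 2.15-fold higher (1.06 to 5.08).

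Short fragments of the type A start are shared with tRNA-Ser TGA, and the label does not settle their parent. Several prefixes of type A of up to 18 nt carry GCT in some lists and TGA in others. The 18-nt prefix ggagagatggctgagtgg is labelled TGA in BCP, where it had 267 reads, and GCT in UNM, where it had 27, and its label in TCP is TGA. In all, 12 of the 1263 members had labels that differ between lists, with 557 reads in BCP and 83 in UNM. Taken under any label, 91.7% of reads with a prefix of type A were at least 30 nt in BCP (91.5 to 91.9) and 69.2% in UNM (66.7 to 71.6), so the length difference did not rest on the label. No fragment with the start of B or G carried another label.

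The TCP list held 580 GCT and 134 GGA sequences. Of these 714, under any label, 159 were listed in both earlier stages, 331 in BCP but not UNM, 23 in UNM but not BCP and 201 in neither. Over all 8633 TCP sequences the same counts were 2690, 3473, 320 and 2150. The share in neither was thus 28.2% of the members and 24.9% of all sequences. Of the members listed in BCP, 50.4% were also in TCP, and of those in UNM 65.9%, beside 41.9% and 54.96% over all sequences. The shared ones were the abundant ones: they held 98.7% of the member reads of BCP and 98.04% of those of UNM, much as over all sequences (98.7% and 98.6%). Every sequence of the A, G and B ladders shown above was listed in TCP, the 19-nt and 18-nt type B fragments included. For distinct GCT sequences, those of at least 30 nt made up 21.7% in UNM, 20.1% in BCP and 22.9% in TCP, and for GGA 13.6%, 16.5% and 20.9%. These shares of distinct sequences lie close together, whereas the shares of reads at that length do not.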

How the data were processed

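For each small RNA library, the authors deposited a list of tRNA fragments with their anticodon, and for UNM and BCP the count of reads of each sequence, not normalized. The numbers in the TCP list are of another, unstated kind and were used for presence only. Bowtie 1.1.2 is named in the submitters' processing notes; its settings, the mismatches allowed and the treatment of reads that match several tRNAs are not stated in the labels or files used.

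From the counts, shares, exact intervals and ratios were computed with Python 3.11.15, pandas 2.3.3, NumPy 2.4.6 and SciPy 1.17.1. A sequence with 0 reads was set at a floor of 3 counts for the point ratio only. Reads carry no molecular identifiers, and the intervals and the floor stand for counting error alone. Families share the anticodon and first 13 nt. Each stretch was started from a fragment with at least 50 summed reads. It was extended over overlaps of 13 nt with sequences of the same anticodon from all 3 lists, whatever their count. Each added base had at least 3 distinct sequences behind it, so added bases can rest on few reads. The fragments were then placed by exact match.

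Members, lists and rules were chosen with earlier results of these data known, and the types and the 18-nt against 19-nt comparison after their values were seen. Sequences named by rule are, per anticodon, the 5 leading families and 3 leading sequences of UNM and of BCP, the leading sequence of at least 30 nt and the leading one ending in CCA. Over both anticodons, the rule adds the 3 highest and 3 lowest ratios from 50 summed reads on, with 1 sequence per family. Other named sequences were chosen after their values were seen. Other cut-offs, denominators and length ranges were tried as alternatives.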

Additional observations from a re-analysis of the deposited data

How the results depend on the processing

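No paired analysis was possible because each stage has 1 library, and no replicate could be left out. On the log2 scale (BCP over UNM), the GCT ratio of 0.24 became 0.88 with tRNA-Asp reads left out of the total, -0.17 without the 10 most abundant sequences of each list and -0.78 with 13 to 33 nt alone. GGA (4.21) gave 4.84, 3.80 and 3.31 under these settings and 1.47 with distinct sequences in place of reads. The alternatives for types A and B were added after seeing the data. In the same order type A (2.42) gave 3.06, 2.01, 1.83 and 0.30, and 2.50 without sequences whose label differs between lists. Type B (-2.05) gave -1.42, -2.47, -1.94 and, for distinct sequences, 0.66, a reversal. The difference in long GCT reads, 57.5 points, was 59.9 from 25 nt on, 37.8 without the most abundant sequence and 20.95 with 13 to 33 nt alone. Of 86 single sequences, 69 were higher and 6 lower (68.2% and 17.2% over all sequences). From 10 summed reads on, 75 of 230 were higher and 14 lower (30.4% and 17.5%), from 200 on, 33 of 40 and 2 (69.8% and 17.8%), from 10 UNM reads on, 11 of 32 and 13 (23.5% and 60.3%), and at 4-fold, 54 of 86 and 5 (50.6% and 12.7%). Of 36 families, 27 were higher and 2 lower (59.6% and 20.4%). From 10 reads on, 27 of 79 were higher and 9 lower (30.5% and 22.2%), from 200 on, 16 of 18 and 1 (66.0% and 18%), and with 13 to 33 nt alone, 27 of 33 and 1 (61.4% and 20.4%). The share listed in TCP, 50.4% of BCP and 65.9% of UNM members, was 91.2% and 92.9% from 10 summed reads on, and 97.1% and 96.7% when presence within a longer TCP sequence of the same anticodon was counted. The cause of these changes was not tested. The other alternatives kept the direction and moved no count by over 1.5 times. GGA in UNM rests on 55 reads, so its lengths there are known only within wide intervals.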
